A study of Mus musculus with 2 samples.

Results

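The stefins and cystatins of the epidermis are inhibitors of cysteine proteases, and 7 of their genes were followed here among the 27998 genes counted in newborn mouse epidermis. The genes were taken by symbol from both count matrices: the type 1 cystatins Stfa1, Stfa2, Stfa3, BC100530 and Csta1, and the secreted type 2 cystatins Cst6 and Cst3. Single-cell RNA sequencing was done on epidermis from 2 male C57BL/6J mice at postnatal day 0, 1 library per mouse. Both mice carry the Chrm3 KO, a loss of the M3 muscarinic acetylcholine receptor in every cell of the body. WT mice were not analysed here, so every comparison below is between cell states within KO epidermis, and none is of the genotype. The cells were released from whole epidermis after its separation from the dermis, which leaves hair follicles, melanocytes and immune cells in the suspension.

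Cystatins block papain-like cysteine proteases such as the cathepsins by wedging 2 hairpin loops and the N-terminal end into the active-site cleft. Stefins lack a signal peptide and stay in the cytosol, and the human stefin A is a known precursor protein of the cornified envelope. Cst6, also called cystatin E/M, is secreted by differentiating keratinocytes (KCs) and inhibits legumain and cathepsins of the cornified layer, and its loss in mice disturbs cornification and hair formation. Cst3, cystatin C, is made by many cell types and is abundant in dendritic cells and macrophages.

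The stefin members lie side by side. On GRCm38 (mm10), Csta1 is at chr16:36119946-36131241 (minus strand), Stfa1 at chr16:36276951-36285373 (plus strand), BC100530 at chr16:36359382-36367748 (minus strand), Stfa2 at chr16:36403992-36408457 (minus strand) and Stfa3 at chr16:36450537-36455392 (minus strand). Cst6 is at chr19:5344705-5349574 and Cst3 at chr2:148871722-148875692, both on the minus strand. Each of the 7 genes has 3 exons. The first hairpin loop, the part of the inhibitor that enters the protease, is encoded by 5 codons. The stretches of coding sequence around it are shown, 5′ to 3′, because they let the members be compared at the part that enters the protease, and the capitals mark the 5 loop codons.
Stfa1: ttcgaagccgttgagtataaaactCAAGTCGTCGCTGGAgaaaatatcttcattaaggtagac
Stfa2: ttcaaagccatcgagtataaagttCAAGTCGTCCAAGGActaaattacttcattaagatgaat
Stfa3: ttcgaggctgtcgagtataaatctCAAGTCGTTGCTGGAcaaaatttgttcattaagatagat
BC100530: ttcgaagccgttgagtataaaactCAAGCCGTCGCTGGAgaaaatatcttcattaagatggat
Csta1: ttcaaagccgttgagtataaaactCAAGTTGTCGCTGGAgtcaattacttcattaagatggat
Cst6: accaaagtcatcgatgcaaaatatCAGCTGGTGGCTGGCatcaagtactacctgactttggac
Cst3: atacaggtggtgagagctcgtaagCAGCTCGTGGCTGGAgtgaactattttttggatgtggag
Over the 15 loop bases, Stfa1 differs from each of Stfa3, BC100530 and Csta1 at 1 base and from Stfa2 at 3, and Cst6 differs from Cst3 at 2. By bases, Stfa2 stands farthest from the other stefins in the loop, at 4 bases from Stfa3, BC100530 and Csta1. Many of these differences are silent. The loop codons of Stfa1, Stfa3 and Csta1 encode the same 5 amino acids, and those of Cst6 and Cst3 also match each other. From Stfa1, BC100530 and Stfa2 each differ at 1 amino acid of the loop. Between a stefin and a secreted cystatin the loop differed at 3 bases (Stfa1 or Stfa3 and Cst3) to 8 bases (Stfa2 and Cst6). Identity over the whole coding sequence counted gaps as differences, so unequal lengths lowered it. By that measure it was highest between BC100530 and Csta1 (83.2%), followed by Stfa2 and Stfa3 (80.9%), and was 55.9% between Cst6 and Cst3. Stfa1 and BC100530 had 74.5% over 384 aligned bases, but Stfa1 has 384 coding bases and BC100530 only 291. Identity within the shared length was not measured, so this order does not name the closest pair. By the same measure, any stefin and either secreted cystatin shared between 46.8% and 49.2%.

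Near-identical copies limit how well 3′ reads can be told apart. Of the 311 windows of 90 bases in the last 400 bases of each transcript, 88 windows of BC100530 (28.3%) also occur exactly in BC117090 or Stfa1, 18 windows of Stfa1 (5.79%) in BC100530, and 8 windows of Stfa2 (2.57%) in Stfa2l1. Stfa3, Csta1, Cst6 and Cst3 share none. Counts of BC100530, Stfa1 and Stfa2 are therefore less certain, and whether reads from shared windows were dropped or assigned to a copy was not examined.

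The promoters of 6 of the 7 members were matched in RefSeq (GRCm38.p6), and BC100530 is listed there as Cstdc5. The last 70 bases before the RefSeq start site are shown for the 5 stefins. All 5 were higher in transition and differentiated than in resting basal KCs, as described next, though their courses differed otherwise. Capitals mark the letters TTTAAAA, which resemble a TATA box and were searched for on both strands. The windows are chr16:36277078-36277147 (plus strand) for Stfa1 and, on the minus strand, chr16:36408364-36408433 for Stfa2, chr16:36455393-36455462 for Stfa3, chr16:36367571-36367640 for BC100530 and chr16:36131190-36131259 for Csta1.
Stfa1: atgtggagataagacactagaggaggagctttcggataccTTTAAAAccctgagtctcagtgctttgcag
Stfa2: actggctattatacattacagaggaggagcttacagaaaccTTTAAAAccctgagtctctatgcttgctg
Stfa3: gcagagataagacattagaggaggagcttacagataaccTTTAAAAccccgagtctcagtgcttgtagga
BC100530: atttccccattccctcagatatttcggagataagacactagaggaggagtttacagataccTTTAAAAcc
Csta1: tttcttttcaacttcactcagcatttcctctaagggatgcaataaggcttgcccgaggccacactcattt
The run begins 30 bases before the start of Stfa1, 29 before Stfa2, 31 before Stfa3 and 9 before the listed start of BC100530. It is not in the windows of Csta1 or Cst3. Of 32851 promoters in the table, 386 (1.18%) hold it in the sense direction within the last 70 bases, and 2661 (8.10%) hold it on either strand within 250 bases. A match describes these letters and is not a measured binding site.

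Of 26683 barcodes, 19488 cells passed the filters, 7607 in mouse 1 and 11881 in mouse 2, with a median of 10480 and 10577 UMIs per cell. The deposited matrices hold 109756784 and 166441732 UMIs. The libraries share 127 barcodes, of which 34 passed the filters. Chrm3 itself had 13 and 19 UMIs in the kept cells, and since 3′ tags can lie outside a deleted part, these counts do not check the label. Clustering gave 24 clusters, of which 16 could be named from marker lists, and 10933 cells (56.1%) stayed in unnamed clusters. The 5 stages of the interfollicular epidermis (IFE) held 3603 cells. They comprised 536 and 906 resting basal cells in mouse 1 and mouse 2, 232 and 488 dividing basal cells, 373 and 571 transition cells, 179 and 211 differentiated cells, and 46 and 61 terminally differentiated cells. The stages carried their keratins: Krt14 was at 18094 and 19417 CPM (a gene's share of the UMIs summed over the cells of a class, scaled so that 1% is 10000 CPM) in resting basal KCs, Krt10 at 31267 and 28815 CPM in differentiated KCs, and Lor at 17754 and 12241 CPM in terminally differentiated KCs. The terminally differentiated cluster also carried markers of other states, with Krt14 at 4403 and 5216 CPM. The division gene Mki67 was at 250 and 182 CPM against 14.4 and 22.9 in differentiated KCs. The follicle gene Lhx2 was at 240 and 163 CPM against 25.2 and 31.8. The study reports basal genes as raised in terminally differentiated KCs of Chrm3 KO mice against WT. Whether these markers come from terminal KCs or from other cells in the cluster was not tested. The cells of this cluster were also shallow, with a median of 5210 and 9131 UMIs against 23567 and 23352 in differentiated KCs. The part of these differences in the terminal levels below was not tested.

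Stfa1, Stfa3 and BC100530 were already abundant in resting basal KCs, while Csta1 was at 128 and 151 CPM and Stfa2 at 2.85 and 10.7 there. This class is 1 cluster, led by H19, Igf2 and Igfbp2, and the fold changes in transition and differentiated KCs below are against it. A further 4429 cells lay in 3 unnamed basal-type clusters, where Stfa1, Stfa3 and BC100530 were lower in both mice. BC100530 was at 774 and 1143, 381 and 585, and 584 and 825 CPM in those clusters (mouse 1 and mouse 2). All 5 stefins were higher in transition and in differentiated KCs. Together they made up 0.368% and 0.506% of all UMIs in resting basal KCs of mouse 1 and mouse 2, 1.23% and 1.39% in transition KCs, and 1.62% and 1.79% in differentiated KCs. In terminally differentiated KCs the sum was back at 0.328% and 0.285%. Below, CPM are given for mouse 1 and then mouse 2, log2 fold changes come with their standard error, and adjusted p-values are Benjamini-Hochberg values over all genes tested.

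Stfa3, a cytosolic stefin, stood at 1336 and 1882 CPM in resting basal KCs, 5099 and 5394 in transition KCs and 7312 and 7701 in differentiated KCs. The values of the mice did not overlap between these stages. Stfa3 rose by 1.66 ± 0.19 on the log2 scale from resting basal to transition KCs (edgeR adjusted p = 2.15e-05) and by 2.34 ± 0.19 from resting basal to differentiated KCs (edgeR adjusted p = 2.57e-07). BC100530, the stefin next to it in likeness, followed the same course, at 1406 and 1956 CPM in resting basal, 4234 and 4978 in transition and 5676 and 6689 in differentiated KCs. Its log2 fold change was 1.41 ± 0.16 in transition KCs (edgeR adjusted p = 1.93e-05) and 2.00 ± 0.16 in differentiated KCs (edgeR adjusted p = 1.99e-07).

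Stfa1 peaked earlier than the other stefins. It was at 807 and 1065 CPM in resting basal KCs, 2649 and 3165 in transition KCs and 2311 and 2489 in differentiated KCs. In both mice the transition level was the highest of the named classes, and the ranges of the 2 mice did not overlap between the transition and differentiated stages. That difference was not among the comparisons tested. Stfa1 rose by 1.59 ± 0.14 from resting basal to transition KCs (edgeR adjusted p = 2.21e-06) and by 1.48 ± 0.14 to differentiated KCs (edgeR adjusted p = 9.31e-07).

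Stfa2 was low outside the suprabasal stages. It had 2.85 and 10.7 CPM in resting basal KCs, 18.3 and 35.3 in transition KCs and 266 and 344 in differentiated KCs. The mice differed most in the resting basal level, and so did the size of its change: from resting basal to transition KCs the log2 ratio was 2.68 in mouse 1 and 1.73 in mouse 2, with a fitted change of 1.83 ± 0.37 (edgeR adjusted p = 0.00232). From resting basal to differentiated KCs Stfa2 rose by 5.47 ± 0.34 (edgeR adjusted p = 1.49e-08), with 6.54 in mouse 1 and 5.01 in mouse 2. A UMI of Stfa2 was seen in 62.0% and 67.3% of differentiated cells, and in 29.2% and 31.9% after every cell was thinned to 3000 UMIs.

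Csta1, the mouse gene closest in name to human stefin A, rose at each step to the differentiated stage. It was at 128 and 151 CPM in resting basal KCs, 296 and 339 in transition KCs and 627 and 640 in differentiated KCs. Its log2 fold change was 1.14 ± 0.12 in transition KCs (edgeR adjusted p = 8.25e-06) and 2.30 ± 0.12 in differentiated KCs (edgeR adjusted p = 3.01e-09). Unlike the other stefins it stayed at 575 and 630 CPM in terminally differentiated KCs, a range that overlapped that of differentiated KCs.

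The secreted Cst6 was a late gene. It was at 7.71 and 15.7 CPM in resting basal KCs, 42.5 and 40.1 in transition KCs and 680 and 410 in differentiated KCs. Cst6 rose by 1.70 ± 0.37 to transition KCs (edgeR adjusted p = 0.00385), with a log2 ratio of 2.46 in mouse 1 and 1.36 in mouse 2. To differentiated KCs it rose by 5.60 ± 0.37 (edgeR adjusted p = 2.49e-08), with 6.46 in mouse 1 and 4.71 in mouse 2. Its UMIs were unevenly spread: the top 10% of differentiated cells held 57.7% and 34.1% of the Cst6 UMIs. They held 58.0% and 47.7% of the Stfa2 UMIs and 20.2% and 20.2% of the Stfa3 UMIs. These shares are not at equal counts, since the median cell had 5 and 5 UMIs of Cst6 but 154 and 162 of Stfa3.

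Cst3 moved least. It stood at 508 and 431 CPM in resting basal KCs, 813 and 680 in transition KCs and 1239 and 1093 in differentiated KCs, with no overlap between stages. Its rise was 0.62 ± 0.12 to transition KCs (edgeR adjusted p = 0.00196) and 1.44 ± 0.12 to differentiated KCs (edgeR adjusted p = 4.03e-07). All 7 genes were thus called higher in transition than in resting basal KCs, where 13.5% of 11669 genes were called higher and 13.5% lower, and all 7 in differentiated KCs, where 27.6% were called higher and 26.5% lower. The median log2 fold change of the 7 was 1.59 in transition KCs and 2.30 in differentiated KCs, against -0.002 and -0.003 over all genes tested.

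Levels were also followed along Krt10, the keratin that marks the suprabasal state. For this, cells of the 4 stages other than the terminal one were binned by their own Krt10 level. From cells under 1000 CPM of Krt10 to cells at 30000 CPM or more, Stfa3 went from 1180 and 1456 to 8891 and 9676 CPM, and Csta1 from 105 and 116 to 666 and 780 CPM. Stfa1 levelled off, at 2821 and 3125 CPM in the bin of 10000 to 30000 and 2698 and 3021 CPM in the highest bin. Stfa2 went from 120 and 162 to 311 and 440 CPM between those last bins, and Cst6 from 364 and 166 to 557 and 489 CPM. At the low end these 2 genes did not rise in both mice. From the lowest bin to the next, Cst6 fell from 48.9 to 9.02 CPM in mouse 1 and rose from 18.3 to 23.7 in mouse 2. Stfa2 rose from 2.89 to 4.10 CPM in mouse 1 and fell from 12.6 to 10.1 in mouse 2. These values are a description, since Krt10 also shaped the clusters.

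Within differentiated cells the genes were correlated to different degrees. Over 179 and 211 cells, Spearman's rho was 0.723 and 0.736 between Stfa1 and BC100530, 0.620 and 0.532 between Stfa1 and Stfa3, and 0.539 and 0.491 between Stfa2 and Cst6. Stfa2 had rho of 0.359 and 0.535 with Csta1 and 0.346 and 0.512 with BC100530, so in mouse 2 Cst6 was not its closest. BC100530 had rho of 0.598 and 0.589 with Krt10. Stfa1 and Cst6 had rho of -0.219 and -0.041. The cells of a mouse share 1 library and differ in depth, and Stfa1 and BC100530 share 3′ windows, so these are descriptions only.

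In terminally differentiated KCs most of the stefin signal was lower. Stfa3 fell from 7312 and 7701 CPM to 1184 and 957, a log2 fold change of -3.19 ± 0.21 (edgeR adjusted p = 1.5e-07). BC100530 fell to 1026 and 824 CPM (-3.12 ± 0.17, edgeR adjusted p = 3.59e-08) and Stfa1 to 430 and 386 CPM (-2.93 ± 0.16, edgeR adjusted p = 2.95e-08). These 3 genes were lower in both mice, with no overlap between the stages. Stfa2 fell to 69.5 and 54.0 CPM (-2.71 ± 0.40, edgeR adjusted p = 0.000164) and Cst3 to 395 and 335 CPM (-2.06 ± 0.14, edgeR adjusted p = 2.39e-07). Csta1 (-0.42 ± 0.12, edgeR adjusted p = 0.0177) and Cst6 (-0.98 ± 0.32, edgeR adjusted p = 0.0302) were called lower as well, but neither call was firm. With library size alone as the scale, that of the printed CPM, Csta1 had -0.06 (edgeR adjusted p = 0.721) and Cst6 -0.63 (edgeR adjusted p = 0.137). Cst6 went from 680 to 212 CPM in mouse 1 and from 410 to 452 CPM in mouse 2, where 7 of 61 cells held 78.4% of its UMIs. Thus 7 of 7 genes were called lower, where 17.3% of all genes were, with a median of -2.71 against -0.03, and 5 of 7 were called with library size alone. With cells under 5% mitochondrial UMIs only, 4 of 7 were called, and Csta1 turned to 1.01 (edgeR adjusted p = 0.109).

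In dividing basal KCs, 5 of the 7 genes were lower than in resting basal KCs, where 14.8% of all genes were called lower, and the median of the 7 was -1.36 against -0.05 over all genes. Stfa3 fell to 532 and 829 CPM (-1.46 ± 0.19, edgeR adjusted p = 6.64e-05) and Stfa1 to 392 and 459 CPM (-1.36 ± 0.14, edgeR adjusted p = 7.97e-06). BC100530 fell to 683 and 821 CPM (-1.38 ± 0.16, edgeR adjusted p = 2.18e-05), Csta1 to 66.2 and 59.7 CPM (-1.38 ± 0.12, edgeR adjusted p = 2.1e-06) and Cst3 to 382 and 333 CPM (-0.62 ± 0.12, edgeR adjusted p = 0.00209). Stfa2 was at 3.67 and 3.87 CPM (-1.19 ± 0.53, edgeR adjusted p = 0.112; 0.0128 with the mouse as a block) and Cst6 at 6.84 and 11.3 CPM (-0.58 ± 0.45, edgeR adjusted p = 0.368). This result depended on which basal cells were compared. Once 3 unnamed basal-type clusters were added to the resting class, 2 of 7 were called, and with cells under 5% mitochondrial UMIs, 0 of 7 were called by edgeR, with 0 at an unadjusted p under 0.05 as well. Under that limit the log2 fold change of Csta1 was 0.024 (edgeR adjusted p = 0.998). Those unnamed clusters held less Stfa3 than the resting basal KCs, at 1084 and 1732 CPM in the cluster led by Ccl27a, 732 and 891 in that led by Pcsk2 and 594 and 930 in that led by Pltp.

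Outside the IFE the stefins were low in every class named. Stfa3 was at 55.0 and 154 CPM in the lower hair follicle, 52.6 and 159 in the inner root sheath and hair shaft, 85.0 and 326 in the upper follicle, 44.7 and 156 in sebaceous cells, 89.2 and 247 in melanocytes and 172 and 249 in Langerhans cells. Mouse 2 was the higher in each of these classes. It was also higher in dermal cells (101 and 403 CPM) and in the 20 and 19 Merkel cells (75.8 and 687 CPM), while T cells had 489 and 356 CPM. Krt10, which melanocytes should lack, was likewise at 460 CPM in mouse 1 and 772 in mouse 2 in melanocytes, and at 503 and 773 in the lower follicle. The ratio of BC100530 to Stfa3 varied between classes, with 77.6 and 86.8 UMIs per 100 Stfa3 UMIs in differentiated KCs, 94.8 and 92.2 in the lower follicle, 65.6 and 73.4 in melanocytes and 75 and 81.5 in Langerhans cells. It was 128 and 98.98 in dividing KCs, 73.5 and 62.0 in sebaceous cells, 45.1 and 72.8 in T cells, and 230 and 89.4 in dermal cells, where mouse 1 had only 20 Stfa3 UMIs. A UMI of Stfa3 was seen in 40.5% and 74.1% of melanocytes, and in 16.7% and 41.1% after thinning to 3000 UMIs. Whether UMIs of that number in melanocytes come from the cells or from free RNA was not tested.

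**Figure D1:**
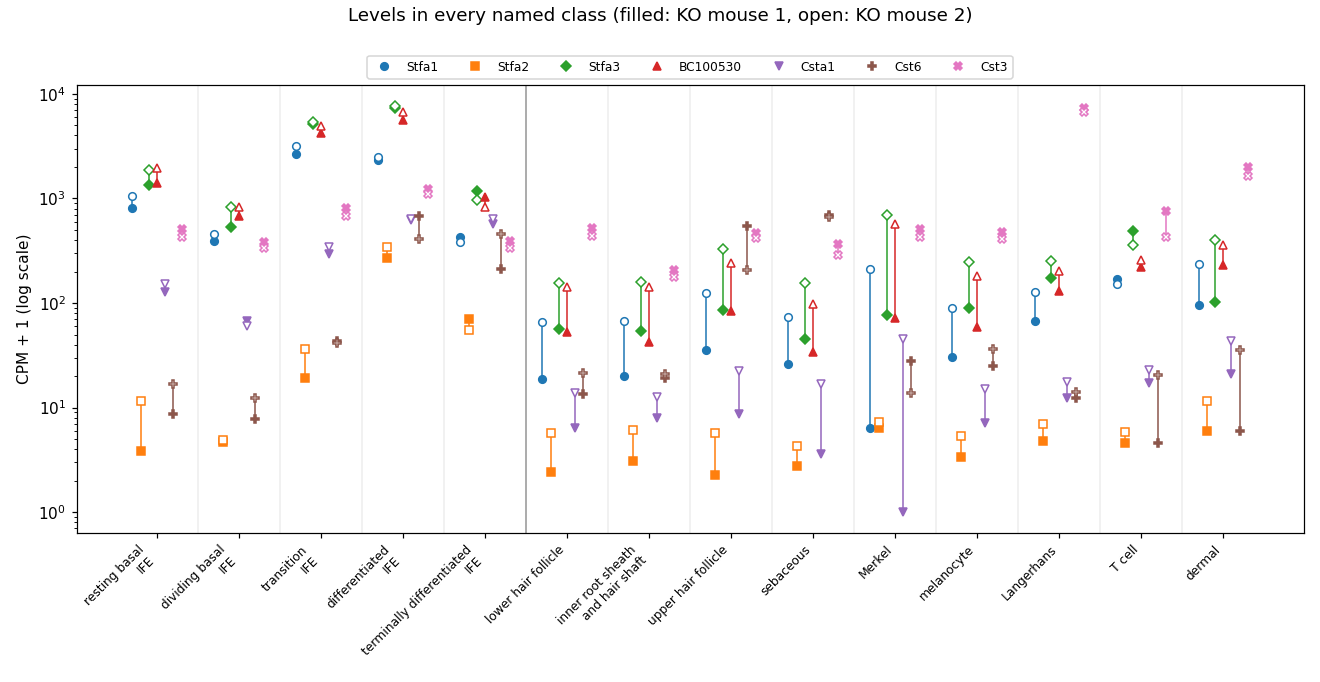
CPM of each gene (log axis) in the IFE stages and the other named classes, with 1 point per mouse. The stefins are highest in the IFE, Cst6 is also high in sebaceous and upper follicle cells, and Cst3 is highest in Langerhans cells.

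Against IFE KCs pooled over stages, all 5 stefins were called lower in each of the 4 classes tested. The pool mixes basal and suprabasal stages and leaves out the unnamed clusters, so these calls are not against each stage. Stfa2 was at 2.38 and 4.38 CPM in melanocytes against 2.85 and 10.7 in resting basal KCs, ranges that overlapped. In the hair follicle Stfa1 had a log2 fold change of -5.17 ± 0.56 (edgeR adjusted p = 1.09e-06) and Stfa3 of -4.95 ± 0.61 (edgeR adjusted p = 4.98e-06). The 5 ran from -4.79 to -5.60 in sebaceous cells, from -4.49 to -4.93 in melanocytes and from -3.62 to -4.08 in Langerhans cells. The size of these folds rests on the low levels, and mouse 1 gave the larger ones, with a log2 ratio of -5.79 against -4.14 in mouse 2 for Stfa3 in the follicle and of -6.75 against -4.08 for Csta1 in sebaceous cells. Of the 91913 and 167796 Stfa3 UMIs of kept cells, 81.5% and 69.6% lay in the IFE stages, which held 22.0% and 22.5% of the UMIs of all genes. The rest was not all outside the IFE, since the 3 unnamed basal-type clusters also held Stfa3. They had 5397 and 16352 UMIs (led by Ccl27a), 3115 and 6765 (led by Pcsk2) and 3608 and 9991 (led by Pltp). With Cst6 and Cst3 included, 6 of 7 genes were called lower in the hair follicle (19.5% of 12487 genes were, and 19.7% were higher), 6 in sebaceous cells (25.7%), 7 in melanocytes (25.4%, with 24.7% higher) and 6 in Langerhans cells (28.3%). The median of the 7 was -4.88, -4.81, -4.58 and -3.85 in that order, against 0, -0.17, -0.02 and -0.14 over all genes.

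Cst6 had a second site in the sebaceous gland and upper follicle. It was at 691 and 667 CPM in sebaceous cells and 546 and 206 CPM in upper follicle cells, ranges that overlapped those of differentiated KCs, against 12.6 and 20.4 CPM in the lower follicle and 24.2 and 35.6 in melanocytes. Cst6 was the 1 member called higher in sebaceous cells than in IFE KCs, by 2.29 ± 0.36 (edgeR adjusted p = 5.65e-05; 18.8% of all genes were called higher). With cells under 5% mitochondrial UMIs its log2 fold change was 1.13 (edgeR adjusted p = 0.113). Sebaceous cells carried it broadly, with a UMI in 81.8% and 80.4% of cells and 27.5% and 37.4% of its UMIs in the top 10% of cells. In the upper follicle 32 of 316 and 31 of 302 cells held 95.6% and 90.1% of its UMIs. For the whole follicle Cst6 was not called against IFE KCs (-0.27 ± 0.35, edgeR adjusted p = 0.585), and without the upper follicle it was called lower (-3.14, edgeR adjusted p = 1.2e-08). In melanocytes it had a log2 fold change of -2.35 ± 0.40 (edgeR adjusted p = 7.46e-05) and in Langerhans cells of -3.28 ± 0.55 (edgeR adjusted p = 6.86e-05). Beside resting basal KCs alone (7.71 and 15.7 CPM), the melanocyte level of Cst6 was the higher in both mice.

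Cst3 was highest in Langerhans and dermal cells. The class called Langerhans cells throughout (145 and 193 cells) was led by Cd74, Tyrobp, C1qb, C1qa and C1qc. Whether it holds macrophages or precursors beside Langerhans cells, the antigen-presenting cells of the epidermis, was not tested. This class held 7320 and 6779 CPM of Cst3, followed by dermal cells at 1990 and 1640 CPM and differentiated KCs at 1239 and 1093 CPM. These 3 levels did not overlap between the mice. T cells held 762 and 428 CPM, a range that overlapped that of transition KCs. It was the 1 member called higher in Langerhans cells than in IFE KCs, by 3.60 ± 0.22 (edgeR adjusted p = 2.41e-10; 25.1% of all genes were called higher). Against the same pooled IFE KCs, Cst3 was called lower in the hair follicle (-1.01 ± 0.20, edgeR adjusted p = 0.000575), in sebaceous cells (-1.05 ± 0.20, edgeR adjusted p = 0.00038) and in melanocytes (-0.78 ± 0.20, edgeR adjusted p = 0.00329). Its levels in the lower follicle (520 and 437 CPM) and in melanocytes (474 and 409) overlapped those of resting basal KCs (508 and 431). The lowest Cst3 level of the named classes was in the inner root sheath and hair shaft, at 206 and 176 CPM.

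Of 22 other stefins and cystatins listed, 20 were in the files and 5 were tested across the stages. BC117090, Gm5483 and Cstb were called higher in transition KCs (1.68, 1.73 and 0.57 on the log2 scale) and in differentiated KCs (3.07, 1.69 and 1.34), and the other 2 tested were not called. Of all genes, 13.5% were called higher in transition and 27.6% in differentiated KCs. Cstb is stefin B, the widely expressed cytosolic stefin, and BC117090 is the copy that shares windows with BC100530. BC117090 and Cstb were called lower in terminally differentiated KCs (-1.65 and -1.13) and in dividing KCs (-1.34 and -0.52), and the other 3 tested were called in neither. Of all genes, 17.3% were called lower in terminally differentiated and 14.8% in dividing KCs. Outside the IFE 3 were tested, and BC117090 was called lower in the hair follicle (-4.93), sebaceous cells (-5.78), melanocytes (-3.70) and Langerhans cells, where it had no UMI, which allows up to 1.90 and 1.39 CPM (3 counts per library). In these 4 classes, in that order, 19.5%, 25.7%, 25.4% and 28.3% of all genes were called lower. Cstb was not called in any of the 4 classes, and its highest level was 772 and 495 CPM in the upper follicle. Cst7, an inhibitor known from immune cells, was at 53.7 and 62.9 CPM in T cells, and was called higher in melanocytes at only 0.864 and 0.609 CPM, with no UMI in the IFE stages.

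The cysteine proteases that cystatins inhibit did not move as one. Of 11 listed, 9 were tested across the stages. Ctsc, which activates serine proteases, and Ctsf were called higher in transition KCs (2.67 and 1.21) and in differentiated KCs (2.59 and 1.76). Ctsl, the cathepsin L of lysosomes, was lower in the same stages (-1.89 and -2.47), and so were Ctso (-1.34 and -1.32), Ctsz (-0.81 and -1.04) and Ctsh (-0.56 and -0.85). These are 2 of 9 higher and 4 of 9 lower in each stage. Of all genes, 13.5% were higher and 13.5% lower in transition KCs, and 27.6% and 26.5% in differentiated KCs. In terminally differentiated KCs Ctsl (2.86), Ctsz (2.42) and legumain, Lgmn (1.57), were called higher and Ctsc (-2.78) and Ctsf (-2.08) lower. Of all genes, 15.6% were called higher and 17.3% lower in that stage. Ctsl was at 404 and 335 CPM there and at 599 and 460 CPM in the lower follicle. It was at 678 and 649 CPM in melanocytes and 666 and 515 in Merkel cells, but at 24.1 and 38.7 in sebaceous cells. Lhx2 and Mki67 were raised in the terminal cluster as given above, and whether other cells in it add to its Ctsl was not tested. In dividing KCs Ctsz was higher (1.24) and Ctsl (-1.41) and Ctsh (-0.99) were lower, against 14.2% higher and 14.8% lower of all genes. In Langerhans cells 8 of 11 proteases were called higher and none lower, led by Ctss (11.02), Lgmn (6.61) and Ctsz (5.31), where 25.1% of all genes were called higher and 28.3% lower. In melanocytes 6 were higher and 3 lower, led by Ctsz (3.78), Ctsk (2.99) and Ctsl (2.22), against 24.7% higher and 25.4% lower of all genes. In the hair follicle 4 were higher and 3 lower, with the largest changes in Ctss (-2.34), Ctsf (2.08) and Ctsc (-2.04), against 19.7% higher and 19.5% lower of all genes. In sebaceous cells 2 of 11 were higher, a share near the 18.8% of all genes, and 5 were lower, against 25.7%, with the largest changes in Ctsh (-3.36), Ctsf (2.64) and Ctsl (-1.99). The median log2 fold change of the proteases tested was -0.56 in transition, -0.56 in differentiated, 0.38 in terminally differentiated and -0.34 in dividing KCs, and 0.03, -1.14, 0.93 and 2.82 in the follicle, sebaceous cells, melanocytes and Langerhans cells, beside the all-gene medians given above.

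Stefins of this locus are also known from mouse neutrophils, so 18 neutrophil markers were measured beside them. Of these, 9 were summed as defining markers: Retnlg, Ngp, Camp, Ltf, Mpo, Elane, Ly6g, Cxcr2 and Csf3r. This subset was not set out with the list. It leaves out the markers that had UMIs in differentiated and terminally differentiated KCs, so its 0 there follows from the choice. The limits below hold for these 9 genes and are not limits on neutrophil signal. The 9 had no UMI in differentiated KCs of either mouse, which allows up to 0.625 and 0.525 CPM (3 counts per library). They had none in terminally differentiated KCs, which allows up to 9.48 and 4.37 CPM. Of all 18, 5 and 6 had a UMI in differentiated KCs, and 4 and 3 in terminally differentiated KCs. Retnlg, Mpo, Ly6g and Cebpe had none in any kept cell. Whether any stefin signal comes from neutrophils was not tested. The whole list summed to 4.69 and 4.32 CPM in resting basal KCs, 8.33 and 5.42 in differentiated KCs and 37.9 and 21.9 in terminally differentiated KCs, against 59.5 and 28.8 in Langerhans cells. Of 3 markers tested across the stages, Il1r2 was called higher in transition KCs (1.96), Prtn3 lower in differentiated KCs (-2.17), and both higher in terminally differentiated KCs (2.38 and 3.31). Of all genes, 13.5% were called higher in transition, 26.5% lower in differentiated and 15.6% higher in terminally differentiated KCs. The all-gene shares for the classes outside the IFE are those given with the proteases. By edgeR none was called in dividing KCs, where 0 of 3 had an unadjusted p under 0.05. Of 4 tested between classes, S100a8 was higher (14.7 and 15.3 CPM, near 0 in the IFE) and Il1r2 lower (-1.67) in melanocytes, Csf3r (14.6 and 5.11 CPM, near 0 in the IFE) and Il1r2 (3.16) were higher in Langerhans cells, Prtn3 was higher (1.56) and Il1r2 lower (-1.41) in the hair follicle, and none was called in sebaceous cells, where 1 of 4 had an unadjusted p under 0.05.

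Likeness of pattern was measured as Pearson's r of log2(CPM + 1) over the 28 sums of 14 classes in 2 mice, among 13122 genes, as a description. Apart from Stfa2, the stefins were most like each other. Stfa3 had r of 0.985 with BC100530 and 0.967 with Stfa1, and its next were Endou (0.927), Csta1 (0.912) and Npl (0.897). Stfa1 had r of 0.971 with BC100530, and beside Stfa3 and Csta1 its next were Fam162a (0.934) and Npl (0.904). Beside the other stefins, BC100530 was most like Endou (0.939) and Aqp3 (0.909). Csta1 had r of 0.930 with Stfa1, 0.920 with BC100530 and 0.912 with Stfa3, then BC117090 (0.893) and Ces2g (0.889). Stfa2 was most like the suprabasal keratins Krt10 (0.953) and Krt1 (0.947), followed by Serpinb12 (0.941), Serpinb3b (0.921) and Rgs20 (0.898), and had r between 0.713 and 0.81 with the other stefins. Cst6 was most like Ly6g6c (0.941), Gm42711 (0.931), Psapl1 (0.921), Sbsn (0.907) and Rdh12 (0.905). Cst3 was most like Rab3il1 (0.868), Rasgrp3 (0.865), Hpgd (0.865) and Entpd1 (0.854).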

How the data were processed

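Per the labels, the authors made UMI counts per gene and barcode with Cell Ranger 3.0.2 on mm10 and deposited them not normalized. The matrices hold 10816 and 15867 barcodes, without the study's cell filter. The study's cell filter was applied (900 to 7700 genes, mitochondrial UMIs below 10%), and Seurat 5.3.0 under R 4.3.3 was used to log-normalize the counts, pick 2000 variable genes, integrate the mice and cluster on 30 dimensions at Louvain resolution 0.8. The 7 genes and the cystatin and protease lists were used neither as variable genes nor for naming. Naming rested on marker lists and needed at least 3 raised markers. The limits of the naming rule were set after the clusters had been seen. They include the marker enrichment that parts transition from differentiated KCs. Scrublet (scanpy 1.11.5, Python 3.11.15) marked 175 (2.30%) and 416 (3.50%) cells as doublets at the threshold of mouse 2, chosen after the automatic threshold marked 2 cells in mouse 1; doublets were kept in the main sums.

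Counts were summed per mouse and class, since cells are not replicates, and tested with edgeR 4.0.16 (TMM, filterByExpr, quasi-likelihood F-test, Benjamini-Hochberg threshold 0.05). The 10 stage sums and the class sums were fitted separately, and no sample was dropped or imputed. The standard error comes from the fold change and F. The main fits held the stage or class only, without the mouse. Their p-values rest on the spread between the 2 mice within a stage or class, pooled over all sums of a fit and moderated across genes. Equal replicate numbers mark 1 animal and therefore pair the sums, a pairing that only the alternative with a mouse block used. Across genes, mouse differences of 2 stages correlated with r from 0.0164 to 0.337 over 10 pairs. The fits were tested on simulated data.

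All 7 genes are named, and of each list the 3 called genes with the largest absolute log2 fold change, with further called genes of the same lists named after their values were seen. For likeness, the 5 genes with the highest r are named for each member, except 1 that is not reported here. The members and lists were chosen with earlier results of these data known. Alternatives were DESeq2 1.42.0, its size factors, no filter, a mouse block, 5% mitochondrial UMIs, resolution 1.2, no integration and removal of doublets; a wider basal class, the follicle without its upper part and library size alone were added after the values were seen.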

Additional observations from a re-analysis of the deposited data

How the results depend on the processing

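The numbers of called genes were within 1.5 times the main count under DESeq2, DESeq2 size factors, no filter, resolution 1.2, removal of doublets, library size alone and the mouse as a replicate block, and wherever no integration gave a value. Exceptions were cells under 5% mitochondrial UMIs, with 4 genes called in terminally differentiated KCs and 0 in dividing KCs, and the wider basal class, with 2 in dividing KCs. Over all stage comparisons the wider basal class lost 4 gene calls, not all of them in dividing KCs. The causes were not tested. Directions turned for Csta1 with the 5% limit, to 1.01 in terminally differentiated KCs (edgeR adjusted p = 0.109) and 0.024 in dividing KCs (edgeR adjusted p = 0.998), and for Cst6 in terminally differentiated KCs, to 0.15 without integration (edgeR adjusted p = 0.778) and 0.14 without mouse 1, against -1.68 without mouse 2. The replicate block brought Stfa2 in dividing KCs past the threshold (-1.24, edgeR adjusted p = 0.0128), as did no filter (-1.18, edgeR adjusted p = 8.72e-06) and no integration (-1.24, edgeR adjusted p = 0.0355), and changed no other call among the 7 genes. Leaving out the filter also brought Cst6 in dividing KCs past it (-0.57, edgeR adjusted p = 0.00928). In terminally differentiated KCs the call of Cst6 was lost under DESeq2 (-1.04, adjusted p = 0.158) and that of Csta1 without integration (-0.07, edgeR adjusted p = 0.702). With neither the 5% limit nor without integration did a transition class form, so no value was had there. Library size alone moved the median log2 fold change of all genes by 0.32 in terminally differentiated KCs, 0.17 in dividing KCs, 0.20 in the hair follicle and 0.17 in melanocytes, and the genes called higher and lower went from 1820 and 2022 to 2793 and 1000, from 1652 and 1725 to 2892 and 817, from 2459 and 2436 to 4117 and 1557, and from 3085 and 3171 to 4268 and 2357. Thinning moved 13 of 14 shares of cells with a UMI. The 46 and 61 terminally differentiated cells limit every value of that stage.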
